A study of Mus musculus with 7 samples.

Results

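The genes described here encode the chemokine ligands, the small secreted proteins that guide leukocytes. They were chosen by symbol, as every gene identifier whose symbol is Ccl, Cxcl, Xcl or Cx3cl followed by a number and at most 1 further letter. The rule found 45 identifiers with 39 different symbols among the 50686 identifiers quantified in each library. Of these, 26 exceeded an expected count of 10 somewhere and were compared between ages, and 21 did so in all 7 libraries. The measured cells were lipid-laden microglia, sorted by FACS as CD11b+ CD45low Bodipy+ cells from the forebrain of C57BL/6 male mice. Bodipy is a dye that stains the neutral lipids stored in lipid droplets. The middle cerebral artery of the right side had been blocked for 45 min and reopened (transient MCAo) in all mice 4 days before sorting, so both ages were ischemic. Sham-operated or untreated animals were not analysed here. The Young group held 4 mice of 3 to 4 months (14C, 18C, 23C and 29C) and the Old group 3 mice of 21 to 22 months (2posI, 3posI and 4posI), with 1 RNA-seq library from each mouse. Total expected counts were 48309150, 45379786, 53002386 and 50659118 in the young libraries and 36574083, 42931779 and 46133564 in the old ones.

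Chemokines bind G protein-coupled receptors on leukocytes and direct their movement along a gradient. They are named after the spacing of the first cysteines in the protein: CC (Ccl), CXC (Cxcl), C (Xcl) and CX3C (Cx3cl). Inflammatory ligands are produced on demand downstream of NF-kB and interferon signalling. Homeostatic ligands hold lymphocytes and stem cells in their niches. In the ischemic brain, microglia are a well known source of the CC ligands that attract monocytes and other leukocytes.

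The sorted cells carried the markers of microglia. Tmem119, a membrane protein that sets microglia apart from other macrophages and 1 of the 10 microglial markers, was at 1027 to 2269 CPM (counts relative to the library total, scaled by the TMM method) in the young libraries. In the old libraries it was at 1837 in 2posI, 850.3 in 3posI and 1873 in 4posI. Library 3posI stood apart from the others. Its microglial markers summed to 11176 CPM, against 21747 to 32406 in the other 6, and its 8 monocyte markers summed to 2233 CPM, against 22.6 to 132.6 in the others. Monocytes carry more CD45 than the gate used here should admit. Many values are therefore given also without 3posI.

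At the level of TPM (transcript abundance per length, scaled to the same total in every library, which corrects for transcript length and so allows genes to be compared), the repertoire was dominated by a pair of CC ligands. Ccl4 and Ccl3, which attract monocytes, T cells and other leukocytes, had median levels of 3917 and 1724 TPM over the 7 libraries. Ccl4 ranked between 18 and 83 and Ccl3 between 39 and 147 among all genes of a library. Next came Ccl12 (a CCR2 ligand, median 635.8 TPM), Cxcl16 (294.2 TPM), Ccl2 (272.2 TPM), Ccl6 (221.2 TPM), Ccl9 (187.2 TPM), Cxcl10 (173.3 TPM) and Cxcl2 (108.8 TPM). Of the 26 genes, 12 had a mean above 100 TPM and 5 a mean below 1 TPM. The spread over the 7 libraries was narrowest for Cxcl16, whose highest CPM was 1.63 times its lowest. It exceeded 20-fold for Cxcl13 (31.3), Ccl8 (24.1) and Ccl22 (57.9), but the lowest Ccl22 value rests on a count of 2. Ccl11, Cxcl3 and Ccl19 were at 0 in at least 1 library, and the other 23 genes were counted in every library.

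**Figure D1:**
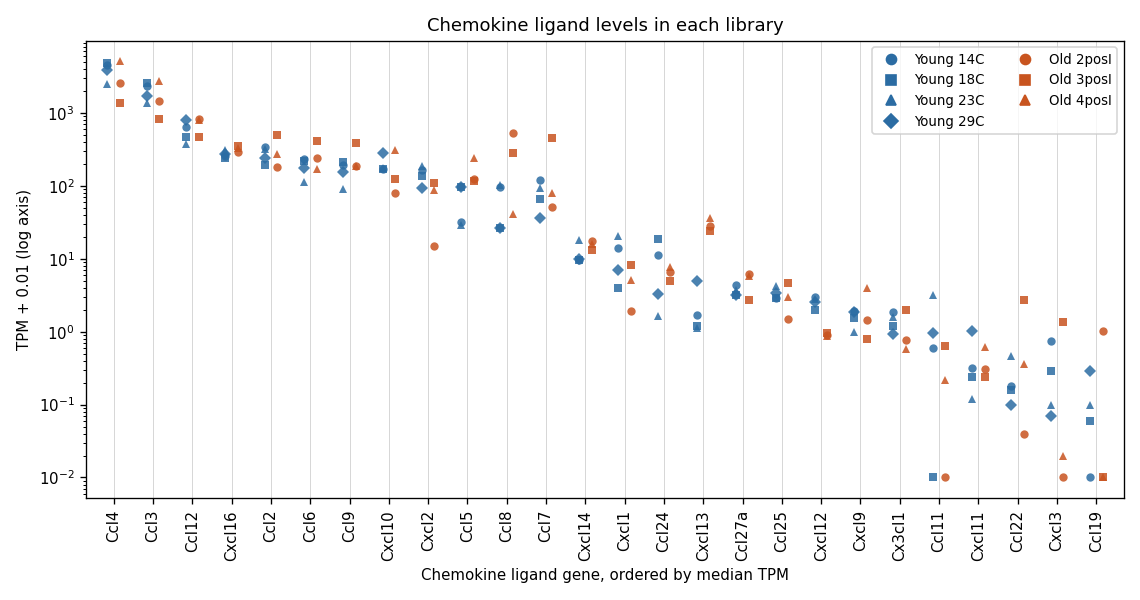
Level of each of the 26 tested chemokine ligand genes in each library, in TPM on a log axis after adding 0.01, with genes ordered by their median. Blue symbols are the 4 young and orange symbols the 3 old libraries. Ccl4 and Ccl3 lie above all others in every library, points at the bottom (0.01) stand for 0 TPM, and the ages are apart for Cxcl13, Cxcl12 and Ccl5.

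The summed level of all chemokine ligands did not separate the ages. It was 4689, 4584, 3049 and 4280 CPM in 14C, 18C, 23C and 29C, the order kept for all young values below. In 2posI, 3posI and 4posI, likewise the order for all old values, it was 3823, 3459 and 5149 CPM. The means were 4151 ± 754.4 CPM (SD, n = 4) and 4144 ± 889.4 CPM (SD, n = 3). Ccl3 and Ccl4 together gave 75.2%, 79.9%, 67.6% and 71.7% of the ligand TPM in the young libraries and 60.7%, 40.3% and 75.0% in the old ones. The low share belonged to 3posI, while 4posI lay within the young range. The remaining ligands summed to 2293, 1881, 1866 and 2223 TPM in young mice and 2619, 3267 and 2603 TPM in old mice. All old values of this remainder were above all young ones, a split of the sum that was made after the values were seen.

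Between ages, 2 of the 26 ligands passed an adjusted p of 0.05 (edgeR quasi-likelihood test with Benjamini-Hochberg adjustment over all genes), 1 higher and 1 lower in Old. Over all 17559 genes tested, 0.803% passed, 0.57% higher and 0.233% lower. By limma-voom 1 of 26 passed (0.814% of all genes), by DESeq2 3 of 26 (7.99%), and by edgeR without 3posI 1 of 26 (0.915%). An unadjusted p under 0.05 was reached by 5 of 26 in edgeR, against 18.9% of all genes. Cxcl13 rose and Cxcl12 fell, and both belong to the homeostatic ligands of lymphoid tissue and bone marrow. For 4 of the 26, every old library lay on the same side of every young one (15.4%), against 17.7% of all genes. Those were Cxcl13, Ccl5 and Cxcl16, higher in Old (8.67% of all genes), and Cxcl12, lower in Old (9.07%). Without 3posI the ages were apart for 8 of 26, against 28.7% of all genes, and without 4posI for 8 of 26, against 31.7%. The estimated change was upward for 15 of 26 ligands (57.7%; 48.8% of all genes), with a median log2 fold change of 0.35, or 0.04 without 3posI, against -0.01 for all genes. The 15 include Ccl19, which passed the count limit through old library 2posI alone. For 21 of 26 the 95% interval of the log2 fold change included 0. These intervals were wide: Ccl11 ran from -5.25 to 1.32 and Ccl7 from -0.20 to 3.02, so sizeable differences in either direction were not detectable for many members with 3 and 4 mice.

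**Figure D2:**
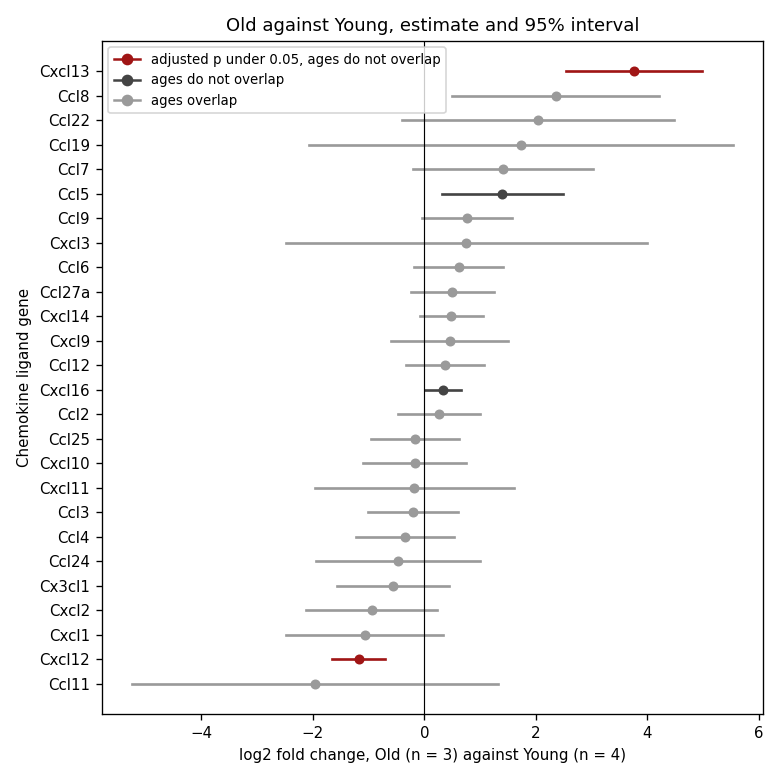
Log2 fold change of Old (n = 3) against Young (n = 4) for each of the 26 tested chemokine ligand genes, with the 95% interval from edgeR. Red marks the 2 genes with an adjusted p under 0.05 (Cxcl13 and Cxcl12), dark grey the other 2 whose ages did not overlap (Ccl5 and Cxcl16), and light grey the rest.

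Cxcl13 (ENSMUSG00000023078, chr5:95956951-95961068, plus strand, GRCm38) encodes the ligand of CXCR5, which draws B cells into follicles. Its level was 1.34, 0.895, 0.883 and 4.15 CPM in young mice and 25.4, 20.8 and 27.7 CPM in old mice. Every old library was above every young one, and young mouse 29C was the highest of its age. In counts, the libraries held 62, 40, 45 and 193 against 854, 813 and 1281. The mean of Old, 24.6 ± 3.51 CPM (SD, n = 3), was 13.5 times that of Young, 1.82 ± 1.57 CPM (SD, n = 4), by the fitted log2 fold change of 3.76 (SE 0.54, 95% interval 2.53 to 4.98, edgeR adjusted p = 0.028). Leaving out 3posI gave 3.87 (edgeR adjusted p = 0.0298). With 1 library left out the log2 fold change was 3.53 to 4.56, or 11.5 to 23.6 times, the highest without 29C. In 5 of these 7 smaller sets it did not pass the threshold, with edgeR adjusted p up to 0.121. Per length, the gene was at a median of 1.44 TPM in Young and 28.3 TPM in Old.

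Cxcl12 (ENSMUSG00000061353, chr6:117168535-117181367, plus strand, GRCm38) encodes the CXCR4 ligand that retains haematopoietic cells and guides progenitors. Its level was 6.80, 5.46, 6.47 and 8.13 CPM in young mice and 3.04, 3.09 and 2.79 CPM in old mice. All old libraries were below all young ones and lay within 1.11-fold of each other. The mean fell from 6.71 ± 1.10 CPM (SD, n = 4) to 2.97 ± 0.164 CPM (SD, n = 3), which the fit put at -1.18 on the log2 scale (SE 0.21, 95% interval -1.65 to -0.70, edgeR adjusted p = 0.0493). This call was at the threshold. With any 1 library left out the log2 fold change was -1.26 to -1.07 and the edgeR adjusted p 0.0686 to 0.166, and limma-voom gave an adjusted p of 0.0587.

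Endothelial markers summed lower along with Cxcl12, whereas markers of mural cells and fibroblasts were mixed. Endothelial cells and fibroblasts are well known producers of this ligand, and the CD11b+ gate should leave them out. The 6 endothelial markers summed to 94.7, 64.6, 123.9 and 106.2 CPM in young mice and 62.3, 59.7 and 49.2 CPM in old mice, without overlap. All 6 had a lower estimate in Old, and 1 of them passed (edgeR and limma-voom 1, DESeq2 3). Without 3posI the estimate of Flt1 turned to 0.08 and the other 5 stayed lower. Cldn5, a tight junction protein, was the most abundant, at 33.5, 19.4, 58.5 and 38.8 against 25.4, 25.8 and 10.1 CPM. Slco1a4, a transporter of the blood-brain barrier, was that gene. It was at 9.33, 6.02, 8.69 and 9.87 CPM in young mice and 2.80, 2.79 and 2.48 CPM in old mice (log2 fold change -1.66, SE 0.23, edgeR adjusted p = 0.028), and kept the call in 1 of 7 sets with a library left out. The 7 markers of mural cells and fibroblasts, led by the collagen gene Col1a1, summed to 50.8, 25.6, 192.4 and 47.5 against 32.7, 32.8 and 13.9 CPM, with overlap. Of the 7, 4 had a lower estimate in Old (Col1a1, Dcn, Lum and Pdgfrb), 3 a higher one (Rgs5, Kcnj8 and Acta2), and 0 passed (edgeR and limma-voom 0, DESeq2 1). In edgeR, 4 of the 7 had an unadjusted p under 0.05, against 18.9% of all genes. None of these endothelial or mural markers was at 0 in every library. Their part in the Cxcl12 difference was not tested. In sorted bulk RNA, fewer cells of a type and less RNA per cell cannot be told apart.

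Markers of other leukocytes were set beside Cxcl13 in the same way. The 8 markers of border macrophages, the phagocytes of the meninges and perivascular spaces, summed to 451.1, 214.5, 377.2 and 173.5 CPM in young mice and 593.8, 1318 and 198.0 CPM in old mice. Old mouse 4posI was within the young range of these markers. Ms4a7 was their most abundant gene. Estimates were higher in Old for 8 of 8, and for 7 of 8 without 3posI, and 0 passed (edgeR and limma-voom 0, DESeq2 1). The 8 monocyte markers, led by Chil3, had higher estimates in Old for 8 of 8. Their sums were 95.8, 22.6, 36.0 and 47.1 against 105.5, 2233 and 132.6 CPM, without overlap. Of the 8 markers, 0 passed (edgeR, 7 with an unadjusted p under 0.05 against 18.9% of all genes, DESeq2 3, limma-voom 0). Without 3posI, 7 of 8 were higher, 1 passed (edgeR) and the median log2 fold change of the list went from 3.78 to 1.17. The B cell markers summed to 144.3, 205.0, 50.3 and 183.3 against 336.0, 88.7 and 214.7 CPM, with overlap, most of it from Ighm, the heavy chain of IgM. Among 5 tested, only Igkc, the constant region of the kappa light chain, passed (edgeR adjusted p = 0.0458), at 0, 0, 0.118 and 0.0215 CPM in young and 45.1, 7.82 and 0.756 CPM in old mice. No young library reached a count of 10 for Igkc, so it entered the comparison only through the age in which it was high. For that reason nothing is drawn from this call. By limma-voom Igkc did not pass (adjusted p = 0.37), and by edgeR it kept the call in 2 of 7 sets with a library left out (adjusted p up to 0.156). Ms4a1, which encodes CD20, stayed at or below 0.486 CPM in every library. Dendritic cell markers, led by Ccr7, summed to 4.37 to 7.90 CPM in young mice and to 13.02, 60.1 and 11.8 CPM in old mice, without overlap. Of these 6 markers, 4 had a higher and 2 a lower estimate in Old. By edgeR 0 of them passed (5 with an unadjusted p under 0.05 against 18.9% of all genes, DESeq2 2, limma-voom 1). Markers of astrocytes (led by Gfap), oligodendrocytes (led by Mbp) and neurons (led by Rbfox3) gave sums that overlapped between ages. Of their 12 tested genes, 0 passed (edgeR, 2 with an unadjusted p under 0.05 against 18.9% of all genes, DESeq2 1, limma-voom 0). The part of these cells in the Cxcl13 difference was not tested.

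**Figure D3:**
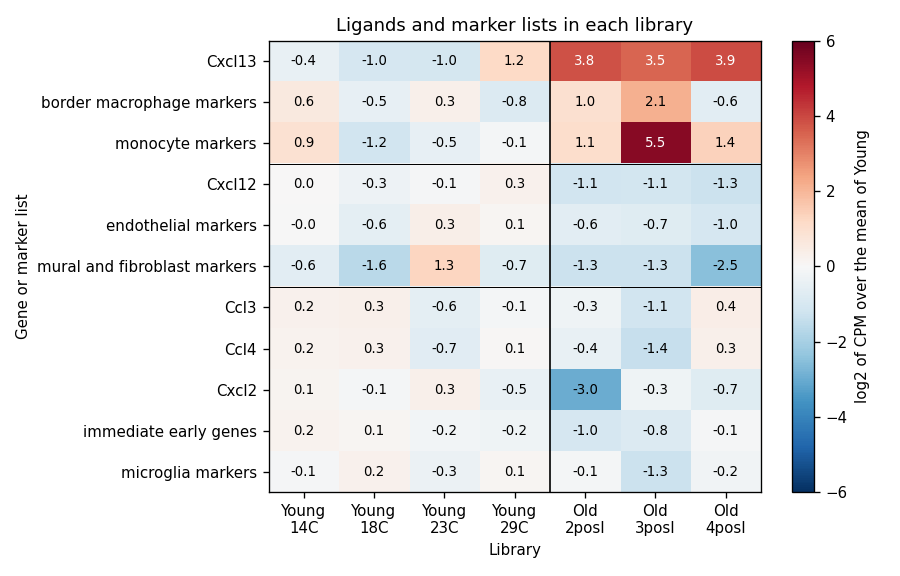
Each ligand or marker list in each library, as log2 of its CPM (summed over a list) over the mean of the 4 young libraries, with red for above and blue for below that mean. Cxcl13 was above it by 3.5 to 3.9 in all 3 old libraries, and border macrophage markers ranged from -0.6 to 2.1 there. Cxcl12 was below it by 1.1 to 1.3 beside lower endothelial markers. The relation of ligands to marker lists was not tested. The monocyte list stands out in 3posI at 5.5.

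The sequences before the transcription start of both called ligands, and of the abundant Cxcl10 whose ages overlapped, differed in the motifs they held. They are shown because Cxcl10 is a textbook target of NF-kB and interferon signalling, against which the called pair can be read. Each is the 250 bases before the start in RefSeq (GRCm38.p6), printed 5′ to 3′ on the strand of the gene. Capitals mark matches on either strand to a TATA box (TATAAA), a kappaB site (GGGA and CC with any 4 bases between them), an interferon-stimulated response element (GAAA repeated after any 2 bases), a gamma-activated site (TTCNNNGAA), an AP-1 site (TGANTCA) or a GC box (GGGCGG).
Cxcl13 (chr5:95956689-95956938, plus strand): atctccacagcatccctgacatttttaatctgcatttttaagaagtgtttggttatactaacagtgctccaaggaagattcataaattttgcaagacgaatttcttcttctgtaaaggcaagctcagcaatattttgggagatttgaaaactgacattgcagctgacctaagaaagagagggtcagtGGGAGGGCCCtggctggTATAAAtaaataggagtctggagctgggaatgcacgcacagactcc
Cxcl12 (chr6:117168285-117168534, plus strand): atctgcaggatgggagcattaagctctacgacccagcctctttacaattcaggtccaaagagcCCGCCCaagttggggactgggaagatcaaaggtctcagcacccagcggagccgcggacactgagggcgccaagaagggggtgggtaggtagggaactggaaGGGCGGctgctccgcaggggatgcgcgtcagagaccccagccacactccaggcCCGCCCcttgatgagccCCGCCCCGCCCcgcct
Cxcl10 (chr5:92348890-92349139, minus strand): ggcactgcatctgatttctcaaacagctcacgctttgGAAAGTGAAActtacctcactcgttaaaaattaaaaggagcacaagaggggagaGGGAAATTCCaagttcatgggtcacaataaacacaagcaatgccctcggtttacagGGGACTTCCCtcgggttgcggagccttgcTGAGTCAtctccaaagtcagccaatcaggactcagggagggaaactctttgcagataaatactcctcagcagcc

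In these windows Cxcl13 held a TATA box 46 bases and a kappaB match 63 bases before the start, and its GC content was 42%. These distances are from the RefSeq start, which lies 12 bases before the GENCODE start of the gene given above. Cxcl12 held 5 GC boxes, the nearest 11 bases before the start and overlapping its neighbour, and no TATA box, at a GC content of 64.4%. Cxcl10 held an interferon-stimulated response element at 213 bases, kappaB matches at 159 and 103 bases and an AP-1 match at 74 bases. Over 32851 promoters of the same length the TATA box was present in 12.4%, the kappaB match in 17.6%, the interferon element in 2.98%, the gamma-activated site in 7.02%, the AP-1 match in 6.75% and the GC box in 32.7%, with a median GC content of 52.4%. A promoter was found for 18 of the 26 tested ligands, in 21 entries, of which 10 held a kappaB match and 8 a TATA box. A match is a stretch of letters and was not tested for binding.

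Ccl5 and Cxcl16 were the other ligands with higher values in every old library. Ccl5 (ENSMUSG00000035042, chr11:83525778-83530518, minus strand, GRCm38), an interferon- and NF-kB-inducible ligand that attracts T cells and monocytes, was at 11.1, 32.2, 9.94 and 36.1 CPM in young mice and 48.9, 44.9 and 83.2 CPM in old mice. The young libraries formed a lower and a higher pair, and the lowest old library was above the higher pair. The log2 fold change was 1.40 (SE 0.48, 95% interval 0.32 to 2.49) with an edgeR adjusted p of 0.171, while DESeq2 gave an adjusted p of 0.0324. Ccl5 is also made by T and NK cells, most of which the CD11b+ CD45low gate should leave out. Their markers, 10 of them tested and led by Lck, summed to 0.688 to 1.41 CPM in young mice. In old mice the sums were 1.49, 4.91 and 5.14 CPM, without overlap but with 2posI barely above the young range. Of the 10, 8 had a higher and 2 a lower estimate in Old, and 0 passed (edgeR and limma-voom 0, DESeq2 2). Cd3e, a defining T cell marker, was at 0 in 3 young libraries and at 0.0196 CPM in 23C, and at 0, 0.562 and 0.453 CPM in old mice. It entered the comparison only through the age in which it was high. For that reason nothing is drawn from its estimate or from the count of higher estimates, which includes it. The part of these cells was not tested.

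Cxcl16 (ENSMUSG00000018920, chr11:70453983-70459984, minus strand, GRCm38) encodes a membrane-bound ligand of CXCR6 that also acts as a scavenger receptor for oxidized lipids. Its level was 338.1, 304.8, 393.5 and 370.7 CPM in young mice and 421.9, 498.0 and 410.2 CPM in old mice. The gap between ages was narrow, and in TPM they overlapped, with 315.8 in young mouse 23C above 294.2 in old mouse 2posI. The log2 fold change of 0.33 (SE 0.14, 95% interval 0.01 to 0.66) did not pass adjustment (edgeR adjusted p = 0.253). Reads were counted without strand, and 18.3% of the exon bases of Cxcl16 overlap the gene Zmynd15 on the other strand, which was assigned 4640 counts over all libraries against 119186 for Cxcl16.

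**Figure D4:**
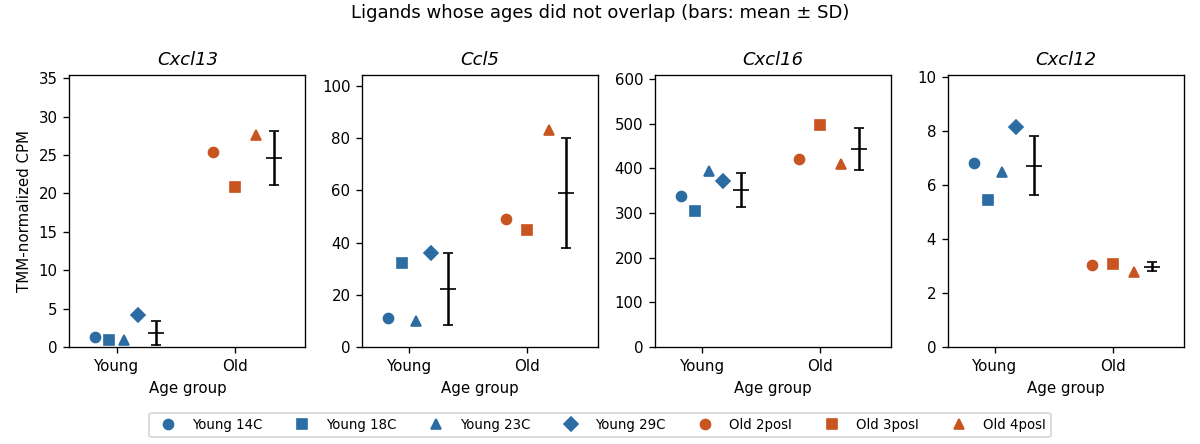
TMM-normalized CPM of the 4 chemokine ligands whose ages did not overlap, with 1 symbol per library and bars for the mean and SD of each age (n = 4 young, n = 3 old). Cxcl13, Ccl5 and Cxcl16 lay higher and Cxcl12 lower in all 3 old libraries, and only Cxcl13 and Cxcl12 had an adjusted p under 0.05.

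The CCR2 ligands attract inflammatory monocytes. All 4 of them (Ccl2, Ccl7, Ccl8 and Ccl12, at 1 locus on chromosome 11) had higher estimates in Old, none passed the test, and none separated the ages. Their median log2 fold change was 0.89, and 0.19 without 3posI. Ccl12, the most abundant, was at 221.4, 158.7, 128.6 and 297.1 against 332.9, 178.5 and 270.7 CPM, a log2 fold change of 0.37 (SE 0.31, edgeR adjusted p = 0.545).

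Ccl2 was at 194.9, 111.6, 181.6 and 151.4 CPM in young and 119.7, 306.0 and 151.9 CPM in old mice, a log2 fold change of 0.27 (SE 0.32, edgeR adjusted p = 0.691). Ccl7, whose gene starts 8258 bases beyond the end of Ccl2, was at 64.95, 35.0, 50.0 and 20.7 against 31.5, 266.7 and 42.5 CPM, a log2 fold change of 1.41 (SE 0.71, edgeR adjusted p = 0.32). In both genes 3posI alone exceeded the young range. Without it the estimates turned to -0.23 for Ccl2 and -0.20 for Ccl7.

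Ccl8, described in full because of its values, followed another order. It was at 31.9, 8.46, 33.7 and 9.36 CPM in young mice and 204.1, 104.4 and 13.2 CPM in old mice. Libraries 2posI and 3posI were above every young library, and 4posI was within the young range. The border macrophage sums given above were likewise higher in 14C, 23C, 2posI and 3posI than in 18C, 29C and 4posI, and their part in the Ccl8 values was not tested. The log2 fold change was 2.36 (SE 0.82, edgeR adjusted p = 0.176) and 2.38 without 3posI, 1.49 without 2posI and 2.88 without 4posI. Within Old, the highest value was 15.4 times the lowest, whereas Ccl12, 11784 bases away, differed 1.87-fold.

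Ccl3 and Ccl4, the most abundant ligands, did not pass the test between ages. Ccl4 was at 1996, 2085, 1090 and 1831 CPM in young mice and 1287, 662 and 2190 CPM in old mice. Ccl3 was at 1221, 1275, 697.2 and 945.9 CPM in young mice and 861.6, 470.5 and 1364 CPM in old mice. In both genes 4posI was the highest and 3posI the lowest of the 7 libraries, and the ages overlapped. The log2 fold change was -0.34 for Ccl4 (SE 0.39, 95% interval -1.23 to 0.54, edgeR adjusted p = 0.669) and -0.20 for Ccl3 (SE 0.35, 95% interval -1.01 to 0.60, edgeR adjusted p = 0.792). Without 3posI the estimates were -0.01 and 0.11, and without 4posI -0.85 and -0.64. The genes lie 13228 bases apart on chromosome 11, and the ratio of Ccl4 to Ccl3 in TPM stayed between 1.65 and 2.27 in every library.

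Ccl6 and Ccl9, rodent CCR1 ligands that myeloid cells make without stimulation, shared their own pattern. Ccl9 was at 164.7, 170.9, 75.9 and 146.7 against 186.6, 369.5 and 154.9 CPM, a log2 fold change of 0.76 (SE 0.35, edgeR adjusted p = 0.285). Ccl6 was at 163.3, 150.2, 78.0 and 132.3 against 182.0, 309.6 and 111.6 CPM, a log2 fold change of 0.62 (SE 0.35, edgeR adjusted p = 0.374). Both were lowest in young mouse 23C and highest in 3posI. Without 3posI the estimates were 0.29 and 0.17. They are neighbours, 9245 bases apart.

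The CXCR2 ligands recruit neutrophils. Cxcl2 was at 111.0, 93.4, 124.9 and 72.8 CPM in young mice and 12.6, 83.0 and 61.2 CPM in old mice. Old mouse 2posI was far below the other 6 libraries, and 3posI was the only old library within the young range. The log2 fold change was -0.94 (SE 0.52, 95% interval -2.12 to 0.23, edgeR adjusted p = 0.36). It was -1.44 without 3posI, where the ages did not overlap, and -0.48 without 2posI. Cxcl1 was lower in level, 2.60 to 13.7 CPM in young and 1.40 to 6.005 CPM in old mice (log2 fold change -1.07, SE 0.62, edgeR adjusted p = 0.385; -1.63 without 3posI, -0.69 without 2posI and -0.64 without 23C), and was also lowest in 2posI. Cxcl3 did not exceed 1.02 CPM. Markers of neutrophils, led by S100a8, summed to 23.3, 21.6, 17.8 and 132.4 CPM in young mice and 48.2, 177.6 and 70.1 CPM in old mice.

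The CXCR3 ligands Cxcl9, Cxcl10 and Cxcl11 are known as interferon-induced ligands that attract T cells, although GENCODE lists mouse Cxcl11 as a polymorphic pseudogene. Cxcl10 was at 124.2, 120.9, 129.2 and 222.9 CPM in young mice and 66.0, 102.2 and 228.5 CPM in old mice. Its highest and lowest values both came from old mice. The log2 fold change was -0.17 (SE 0.41, 95% interval -1.10 to 0.75, edgeR adjusted p = 0.848). It was -0.83 without 4posI and turned to 0.15 without 2posI and 0.08 without 29C. Cxcl9 was at 0.843 to 2.27 CPM in young and 1.53 to 3.71 CPM in old mice. Cxcl11 did not exceed 1.38 CPM, and 41.7% of its exon bases overlap a gene on the other strand, which was assigned 1 count in all libraries against 159 for Cxcl11. Cxcl9, Cxcl10 and Ccl5 were among the 6 tested ligands that were highest in old mouse 4posI, along with Ccl3, Ccl4 and Cxcl13. Cxcl11 was highest in young mouse 29C.

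The rest were low. Among the lymphoid and homeostatic ligands beside Cxcl13 and Cxcl12, Cxcl14 was at 11.8 to 22.4 CPM in young and 18.2 to 25.3 CPM in old mice (log2 fold change 0.48, SE 0.25, edgeR adjusted p = 0.33). Ccl25 and Ccl27a did not exceed 3.73 and 2.47 CPM. The CCR3 ligands, which attract eosinophils, were lower in estimate for 2 of 2 (Ccl24, -0.47, and Ccl11, -1.97) and did not pass. Ccl24 turned to 0.15 without 18C and 0.03 by limma-voom, and Ccl11 lay between -3.39 without 3posI and -0.82 without 23C. Ccl22, a CCR4 ligand made by dendritic cells, was at 3.45 CPM in 3posI and at most 0.608 CPM elsewhere. Cx3cl1, the membrane-bound ligand that neurons display to microglia, was at 1.05 to 3.20 CPM in young and 1.01 to 2.00 CPM in old mice. Ccl19 passed the count limit through 2posI alone. Of the 19 identifiers not tested, 6 were at 0 in all libraries, and the other 13 reached a count of 0.6 to 10 in their highest library. They were Ccl1, Ccl17, Ccl20, Ccl21a, Ccl21b, Ccl26, Ccl27b, Ccl28, Cxcl5, Cxcl15, Cxcl17 and Xcl1, and 7 identifiers of Ccl19, Ccl21a, Ccl21c and Ccl27a on unplaced scaffolds. The Ccl19, Ccl21 and Ccl27 copies are near-identical and can share reads, so their levels are uncertain, those of the tested Ccl19 and Ccl27a included.

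On the receiving side, 18 of 24 listed chemokine receptors were tested and 0 passed by edgeR, limma-voom or DESeq2. DESeq2 gave no adjusted p for Ccr7 and Cxcr2. An unadjusted p under 0.05 was reached by 4 of the 18 in edgeR, against 18.9% of all genes. Cx3cr1, the fractalkine receptor that marks microglia, was the most abundant, at 2633, 3566, 1955 and 2596 CPM in young and 2189, 984.4 and 2390 CPM in old mice. Ccr7 (edgeR adjusted p = 0.0856) and Cxcr2 (edgeR adjusted p = 0.142) had the smallest p. Without a filter on low counts, Ccr7 passed (edgeR adjusted p = 0.0332). Ccr7 was at 1.04, 1.03, 0.412 and 1.38 against 3.31, 44.8 and 3.07 CPM, and Cxcr2 at 0.563, 0.157, 0.294 and 0.731 against 0.894, 7.95 and 0.864 CPM. Of the 18 receptors, these 2 separated the ages (11.1%, against 17.7% of all genes), with 3posI far above the rest. Without it their log2 fold changes went from 4.14 to 1.72 and from 2.88 to 1.01. Cxcr3, the receptor of the CXCR3 ligands, lies on the X chromosome and was not tested. It was at 1.52, 1.43, 1.61 and 0.473 CPM in young and 3.28, 2.91 and 1.88 CPM in old mice, without overlap. The receptors of the called ligands, Cxcr5 at 0.259 to 0.902 CPM and Cxcr4 at 5.23 to 56.8 CPM, overlapped between ages. Of the chemokines that escape the symbol rule, the platelet and macrophage gene Pf4 was at 75.2, 32.3, 48.7 and 17.2 against 64.8, 315.0 and 18.5 CPM, and Ppbp did not exceed 0.843 CPM. Both overlapped between ages, and their log2 fold changes of 1.61 and 1.16 turned to -0.06 and -0.56 without 3posI.

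Among 24 genes of receptor signalling, 1 passed. Grk2, the kinase that phosphorylates and desensitizes active receptors, rose from 69.6, 76.5, 53.6 and 70.2 CPM to 110.6, 119.2 and 119.0 CPM, a log2 fold change of 0.79 (SE 0.14, edgeR adjusted p = 0.047). All old libraries were above all young ones. With any 1 library left out the call was lost, at an edgeR adjusted p of 0.0662 to 0.151. It was also lost with all libraries under upper-quartile scaling factors (edgeR adjusted p = 0.0505). Rgs1, which shortens G protein signals and was the most abundant of the list, was at 996.2, 674.5, 1149 and 783.5 against 385.4, 913.6 and 901.9 CPM, with overlap.

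Of 24 tested inducers of chemokine genes, among them cytokines, Toll-like receptors and transcription factors of the NF-kB and interferon pathways, 0 passed (edgeR and limma-voom 0, DESeq2 2). An unadjusted p under 0.05 was reached by 6 of the 24 in edgeR, against 18.9% of all genes. The smallest p belonged to the NF-kB subunits Rela and Relb. Rela was at 146.9, 150.4, 142.9 and 129.4 against 93.6, 101.3 and 109.8 CPM, a log2 fold change of -0.49 (SE 0.12, edgeR adjusted p = 0.0886). Relb was at 36.1, 39.1, 37.1 and 33.5 against 19.6, 28.1 and 25.2 CPM, a log2 fold change of -0.59 (SE 0.15, edgeR adjusted p = 0.0979). Both were below every young library in all old mice. Of the 24 inducers, 4 separated the ages (16.7%, against 17.7% of all genes). Nfkbia, the NF-kB inhibitor and most abundant of the list, was at 1907, 1788, 1265 and 1789 against 866.7, 772.1 and 2219 CPM, with 4posI the highest of all libraries, as for Ccl3 and Ccl4. Ifng was at 0 in every library.

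Genes that respond to handling and the RNA composition were set beside these values. The 20 immediate early genes, which respond within minutes to stimulation and to warm tissue dissociation, summed to 25152, 23352, 18938 and 18120 CPM in young mice and 10756, 12271 and 20618 CPM in old mice, with overlap through 4posI. Their estimates were lower in Old for 19 of 20, and 0 passed (edgeR and limma-voom 0, DESeq2 2). In edgeR, 5 of the 20 had an unadjusted p under 0.05, against 18.9% of all genes. Junb was the most abundant, and the smallest p belonged to Klf2 (log2 fold change -1.58, edgeR adjusted p = 0.101) and Fosb (-1.24, edgeR adjusted p = 0.11). Within Old, 4posI was highest in the immediate early sum, Nfkbia, Ccl3 and Ccl4. Ribosomal RNA took 4.14% to 4.99% of the young and 2.21% to 3.37% of the old counts, without overlap. Their part in the chemokine values was not tested.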

How the data were processed

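Libraries were prepared with the Smart-seq2 protocol for low RNA input, in which polyadenylated RNA is copied and amplified by PCR. They were non-stranded per the labels, and no molecular identifiers are named, so PCR copies were counted as reads. The labels name a PureLink kit for RNA extraction and the methods PicoPure. The authors checked reads with FastQC 0.11.5, removed adapters with skewer, aligned to GRCm38 by STAR and ran RSEM on GENCODE m15 (versions of the last 2 not given in the sources used here). Files deposited by the authors hold expected counts without normalization, TPM and FPKM values scaled within each library, and gene lengths. FPKM values were not used. TPM values served to compare levels between genes.

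Rounding made whole numbers of the expected counts. Genes whose count exceeded 10 in any library were tested, except X, Y and mitochondrial genes. Positions came from GENCODE vM21 (GRCm38), which held 50462 of the 50686 identifiers. TMM factors and CPM came from edgeR 4.0.16 (R 4.3.3), as did the quasi-likelihood test with age as the only term. The labels give no batch. p-values were adjusted over 17559 genes and measure the spread between mice of 1 age. An exact permutation test of 4 against 3 libraries cannot give a p below 0.0286. All ligands above the count limit are accounted for. Full values are given for the 13 that passed the test, separated the ages with 1 CPM or more on average in the higher age, or were among the 10 with the highest mean CPM, and for Ccl8, which was chosen after its values were seen. From the lists of receptors, receptor signalling, inducers and immediate early genes, those past the threshold or else the 2 with the smallest p are given, with the most abundant. The receptor Cxcr3 was added after its values were seen. Some items are not reported here. The members and lists were chosen with earlier results of these data known. Alternatives were limma-voom (limma 3.58.1), DESeq2 1.42.0, RLE and upper-quartile factors, an effective-length offset, no filter, the filterByExpr filter, X, Y and mitochondrial genes kept, and each library left out.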

Additional observations from a re-analysis of the deposited data

Results flagged for a closer look

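In 2 of 26 ligands 1 young library was far from the other 3 by Dixon's test, where chance flags about 1 in 20 groups, or 1.3 of 26. Young mouse 29C was high in both. Its gap to the next library was 0.859 of the range of the young group for Cxcl13 (4.15 CPM against 0.883 to 1.34) and 0.919 for Cxcl10 (222.9 CPM against 120.9 to 129.2). The old groups, with 3 libraries each, were not examined.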

How the results depend on the processing

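Over 15 alternatives, 356 of 387 log2 fold changes of single ligands kept their direction and their side of the threshold, 14 lost the threshold, 1 (Ccl5 by DESeq2) passed it, and 16 values of 11 uncalled ligands changed sign. Ligands called numbered 2, and 1 by limma-voom or with X, Y and mitochondrial genes kept, where Cxcl12 missed the threshold. Leaving out 1 library gave 0 to 1 ligands called, with Cxcl13 called without 29C or 3posI, and 4 to 8 ligands whose ages did not overlap (8 without 3posI or 4posI, where 28.7% and 31.7% of all genes did not overlap). Genes called over the whole table numbered 141. They were 1403 by DESeq2, 213 with the effective-length offset, 288 without a filter, and 1 to 159 with 1 library left out (1 without 14C, 18C or 2posI, 2 without 29C, 14 without 23C, 85 without 4posI). The cause of these shifts was not tested. Cxcl13 was called in 8 of 8 alternatives with all libraries and in 2 of 7 with 1 left out, Cxcl12 in 6 of 8 and 0 of 7. No paired analysis was possible because the labels give each mouse its own code. With 3 and 4 mice and a biological coefficient of variation of 37.2%, calls rest on few animals.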
